A study of Mus musculus with 81 samples.

Results

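Potassium channel genes of mouse hippocampal area CA1 were taken as every gene whose symbol begins with Kcn and whose mean level reached 1 CPM (read counts scaled to the library total) in at least 1 control group. Of 99 Kcn symbols in the count tables, 80 met this minimum, of which 78 code for protein and 2, Kcnq1ot1 and Kcnmb4os2, are noncoding. All 3 control groups had 68 of them at or above the minimum. Just outside it were Kcnn4 at a highest control mean of 0.915 CPM and Kcnrg at 0.769 CPM, and just inside were Kcnmb1 at 1.24 CPM and Kcnk5 at 1.29 CPM. The mice were male C57BL/6J animals of about 9 to 12 weeks.

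The study asked how the histone variants macroH2A1 (mH2A1, encoded by H2afy) and macroH2A2 (mH2A2, encoded by H2afy2) act on transcription and memory in CA1, and it comprised 81 samples, of which 26 were RNA-seq libraries and 55 ChIP-seq libraries with their inputs. In the depletion experiment, mice received an AAV-DJ vector that carried a short hairpin RNA against H2afy (shH2afy), against H2afy2 (shH2afy2) or a scramble sequence (shScr), with 3 libraries in each group. The U6 promoter drove the hairpin and a CMV promoter drove GFP, and neither promoter is specific to a cell type. Which cell types were infected was not stated. The infected tissue was collected whole 2 weeks later, and both depletion vectors were packaged at titres that differed. In the training experiment, shScr and shH2afy mice were either left in the home cage (untrained) or collected 1 h after contextual fear conditioning (trained), with 3 libraries in each of the 4 groups, and another experiment compared 2 trained with 3 untrained mice that received no virus (intact mice). Every virus group, shScr included, thus had surgery and a GFP vector, which the intact mice had not. The ChIP-seq mice also received no virus and were home cage controls or mice trained 30 min, 1 h or 6 h earlier.

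Potassium channels let potassium leave or enter the cell down its gradient, and in hippocampal neurons they set the resting potential, shape the action potential and limit repetitive firing. Voltage-gated subunits (Kcna, Kcnb, Kcnc, Kcnd, Kcnh and Kcnq) form the pores that open on depolarisation, silent subunits (Kcnf, Kcng, Kcns and Kcnv) join Kcnb pores without forming channels of their own, and cytoplasmic Kcnab and Kcnip proteins and single-pass Kcne proteins tune their gating and surface expression. Inward rectifiers (Kcnj) and tandem-pore leak channels (Kcnk) act near rest, and calcium- or sodium-activated channels (Kcnma, Kcnn and Kcnt, with Kcnmb as ancillary subunits) follow activity. CA1 pyramidal cells are known for a strong dendritic A-type current carried by Kcnd2 together with Kcnip subunits.

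Library totals were 9954415 to 18750763 counts in the depletion experiment, 81351559 to 92226421 in the training experiment and 48769140 to 58655523 in intact mice. In the depletion experiment H2afy stood at 43.5, 44.5 and 38.7 CPM with shH2afy and at 60.6, 59.2 and 50.6 CPM with shScr. The groups did not overlap, with a log2 fold change of -0.37 (SE 0.10, adjusted p = 0.031 in edgeR), which missed the 0.01 threshold used for that experiment. H2afy2 stood at 13.2, 8.21 and 7.74 CPM with shH2afy2 and at 18.2, 19 and 18.2 CPM with shScr (log2 fold change -0.95, adjusted p = 0.0907 in edgeR). The paper itself reported that each hairpin lowered its target in infected tissue, in mRNA and in protein. It also reported raised H2afy mRNA with the H2afy2 hairpin. Here H2afy stood at 72.1, 66.3 and 67.5 CPM with shH2afy2, above every shScr library. In the training experiment the count of the targeted gene went against the labels. In untrained mice the libraries labelled shH2afy held H2afy at 87, 87.7 and 87.7 CPM and shScr libraries at 81.7, 82.5 and 79.2 CPM. In trained mice the values were 99.2, 93.8 and 89.1 CPM against 85, 86.2 and 81.4 CPM. Reads in introns were counted there, so these values do not give the level of spliced H2afy mRNA alone. The shH2afy libraries of that experiment are therefore called "labelled shH2afy" throughout.

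Markers of several cell types differed between the virus groups. In the depletion experiment the summed level of 18 pan-neuronal genes was 6150 to 8020 CPM with shH2afy and 11000 to 13800 CPM with shScr, with 7 of 18 lower, and that of 8 CA1 pyramidal genes was 503 to 699 against 1020 to 2330 CPM. Microglia and macrophage genes summed to 1700 to 3340 CPM with shH2afy and to 260 to 392 CPM with shScr, with 10 of 10 higher, and lymphocyte genes to 62.6 to 159 against 3.23 to 6.43 CPM. Inhibitory neuron genes fell in 6 of 10 cases and astrocyte genes rose in 3 of 8. Over all genes tested 4.47% fell and 12.6% rose. In these lists the inhibitory gene Npy went the other way, at 264, 141 and 90.2 against 62.8, 58.9 and 43.6 CPM with shScr. So did the astrocyte gene Slc1a2, at 1540, 1640 and 2200 against 2880, 2540 and 2520 CPM. Dentate granule genes summed to 538, 153 and 667 CPM with shH2afy and 125, 584 and 272 CPM with shScr, so they differed widely within both groups, and shScr replicate 1 held the lowest granule and the highest CA1 sum among the shScr libraries. The mitochondrial share of counts was 2.71 to 3.38% with shH2afy and 3.87 to 6.25% with shScr, without overlap. In bulk tissue, fewer cells of a type and less RNA per cell cannot be told apart, and the part these markers and the mitochondrial share play in the channel results below was not tested. The shH2afy2 libraries held 10800 to 12700 CPM of the pan-neuronal genes, which overlapped the shScr range, and 388 to 809 CPM of the microglia genes.

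In scramble mice the ancillary subunit gene Kcnab2 was the most highly expressed member for its length, at 181.8 CPM per kilobase of exon. After it came the inward rectifier Kcnj4 at 55.9, the Kcnd partner Kcnip2 at 53.0, the A-type pore Kcnd2 at 46.6, the leak channel Kcnk1 at 39.7 and the ancillary subunit Kcnab1 at 34.9 CPM per kilobase. The astrocytic inward rectifier Kcnj10 stood at 31.7 CPM per kilobase, so genes known from neurons and from astrocytes both stood among the abundant members. The order among neighbours from Kcnj4 to Kcnj10 is a description of mean levels and was not tested.

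With shH2afy in the depletion experiment, 9 of 78 members tested fell and 2 rose at an adjusted p under 0.01, while over all 16179 genes tested 4.47% fell and 12.6% rose. Among the members that fell were the ancillary subunits Kcnab1 and Kcnab2, the voltage-gated pores Kcnc2, Kcnd2 and Kcnh3, the silent subunit Kcns3, the leak channel Kcnk2 and the G-protein-gated inward rectifier Kcnj9. Those that rose were Kcnk6, a tandem-pore channel known from macrophages and other non-neuronal cells, and Kcne1l, a single-pass ancillary subunit also named Kcne5. The direction was wider than the calls, since the median log2 fold change over the members was -0.56 against 0.01 over all genes, and 65 members had a negative and 13 a positive value. Every shH2afy library lay below every shScr library for 38 members and above for 4, where 25.0% and 23.7% of all genes did so.

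Kcnab1, whose product binds Kcna pores and speeds their inactivation, stood at 64.6, 59.7 and 108 CPM with shH2afy, at 384, 236 and 278 CPM with shScr, and at 309, 244 and 352 CPM with shH2afy2. All shH2afy libraries were far below both other groups, which overlapped each other, and the fall against shScr was the largest among the called members at -1.89 on the log2 scale (SE 0.28, adjusted p = 0.00247 in edgeR). Its relative Kcnab2 stood at 297, 395 and 500 CPM against 1330, 885 and 831 CPM with shScr and 1290, 1170 and 1510 CPM with shH2afy2 (-1.29, SE 0.25, adjusted p = 0.00715 in edgeR). The remaining member, Kcnab3, stood at 14.6, 30.2 and 12 CPM against 56.4, 46 and 33.8 CPM. It did not pass the test, although its groups did not overlap.

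Among the pores, Kcnd2 stood at 97, 102 and 144 CPM with shH2afy and at 300, 220 and 200 CPM with shScr (-1.01, SE 0.20, adjusted p = 0.00849 in edgeR). The shH2afy libraries were below all shScr libraries, and the shH2afy2 libraries, at 214, 175 and 214 CPM, overlapped those of shScr. Kcnc2, a fast delayed rectifier typical of fast-spiking interneurons, stood at 31.5, 46.2 and 49.5 CPM against 98, 102 and 82.6 CPM (-1.09, SE 0.18, adjusted p = 0.00382 in edgeR).

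Kcnh3, a pore of the ether-a-go-go-like group that dampens hippocampal excitability, was the most tightly measured of the lowered genes. It stood at 57.4, 55.3 and 67.4 CPM with shH2afy and at 144, 144 and 146 CPM with shScr (-1.21, SE 0.11, adjusted p = 0.000392 in edgeR). Kcns3, a silent partner of Kcnb pores, stood at 5.61, 6.69 and 5.74 CPM against 16.2, 13.5 and 10.6 CPM (-1.10, SE 0.18). Of the channel genes that act near rest, 1 of 9 tested Kcnk and 1 of 12 Kcnj genes fell, where 4.47% of all genes did. Kcnk6 rose, as given below. Kcnk2, a mechanically and lipid-gated leak channel, stood at 40.5, 43.5 and 49.3 CPM against 79.2, 90.7 and 81.1 CPM (-0.85, SE 0.11). Kcnj9, which acts downstream of inhibitory G-protein-coupled receptors, stood at 53.8, 59.9 and 64.8 CPM against 111, 142 and 108 CPM (-0.95, SE 0.13).

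The raised genes started from low levels. Kcne1l went from 4.07, 2.34 and 5.31 CPM with shScr to 58.7, 53.3 and 43.7 CPM with shH2afy (log2 fold change 3.82, SE 0.30, adjusted p = 0.000245 in edgeR), and Kcnk6 from 5.04, 3.74 and 3.37 CPM to 37.4, 31 and 25 CPM (3.00, SE 0.21, adjusted p = 0.000197 in edgeR). With shH2afy2 both stayed between 4.27 and 7.35 CPM. The lowest of the shH2afy libraries was replicate 3 for both genes, and the microglia genes summed to 3080, 3340 and 1700 CPM in replicates 1 to 3.

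**Figure D1:**
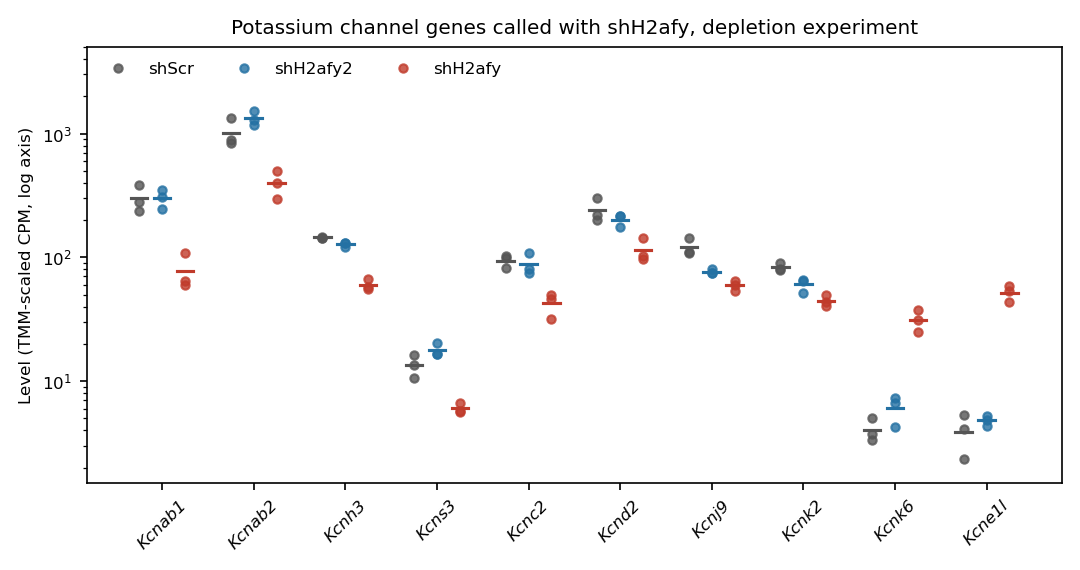
Levels of 10 of the 11 potassium channel genes called with shH2afy in the depletion experiment, in TMM-scaled CPM on a log axis, with 1 point per library, a line at each group mean and 3 libraries per group. The shH2afy points lie below both other groups for Kcnab1, Kcnab2, Kcnc2, Kcnd2, Kcnh3, Kcnj9, Kcnk2 and Kcns3, and above them for Kcnk6 and Kcne1l.

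By subfamily, 2 of 3 Kcnab genes, 1 of 4 Kcnc, 1 of 3 Kcnd, 1 of 8 Kcnh, 1 of 9 silent subunits, 1 of 12 Kcnj and 1 of 9 tested Kcnk genes fell. Over all genes tested 4.47% fell, and a call of 1 gene is not a result about its subfamily. The largest median fall was -1.29 on the log2 scale in Kcnab, followed by -0.87 in both Kcnc and Kcnh. The tested Kcnq genes had a median of -0.78. None of the 10 calcium- and sodium-activated genes passed the test in edgeR, with 6 lower at an unadjusted p under 0.05, where 3088 of all 16179 genes were. Their median was -0.68, with the large-conductance pore Kcnma1 at 119, 109 and 191 CPM against 216, 266 and 219 CPM. In contrast the Kcna median was -0.11, and the astrocytic Kcnj10 stood at 237, 238 and 206 CPM against 185, 166 and 163 CPM (adjusted p = 0.0169 in edgeR). The gene nearest the threshold was the erg channel Kcnh2 at -0.62 (adjusted p = 0.0103 in edgeR).

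**Figure D2:**
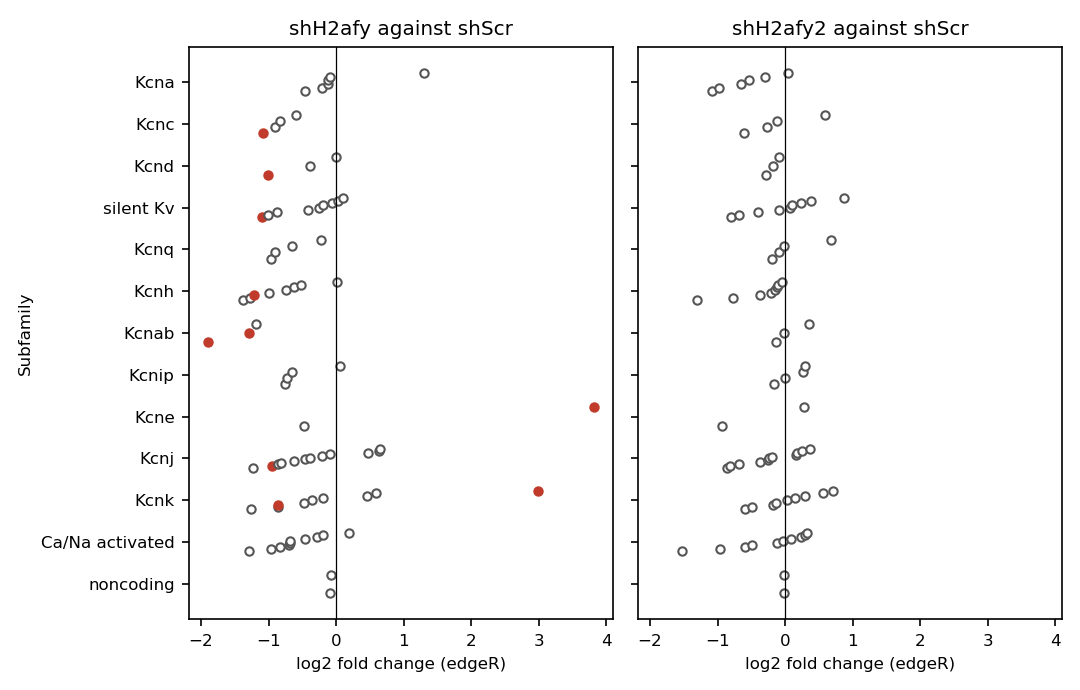
Log2 fold change of each tested potassium channel gene against shScr in the depletion experiment, by subfamily without Kcnb, with shH2afy on the left and shH2afy2 on the right. Filled points passed an adjusted p under 0.01, as 10 of those shown did on the left and 0 on the right.

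These directions hold relative to the median gene. When libraries were scaled to the 18 pan-neuronal genes instead, the median of all genes rose to 0.72 and that of the members turned positive, to 0.18, with 7 members called higher and 1 lower. The share of all genes called under this scaling or with DESeq2 is not given here or below. Counts of called members under them are therefore not a result about the members. The count also depended on single libraries and on the tool: it was 4 without shH2afy replicate 1, 21 without shH2afy replicate 3, 6, 6 and 7 without each shScr library in turn, and 32 (3 higher, 29 lower) with DESeq2. Counting by strand is not stated, and antisense exons overlap 12.2% of the exon bases of Kcnk2, 4.01% of Kcnj9 and 2.34% of Kcnab1, so reads there cannot be assigned to a strand.

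With shH2afy2, 0 of 77 members tested passed the adjusted p under 0.01 in edgeR in either direction, where 0.0% of all genes did. Since no gene passed, this count cannot show whether the members responded. The paper reported genes changed by this depletion with DESeq2. At an unadjusted p under 0.05 there were 6 members higher and 13 lower, where 1632 and 1606 of all 15609 genes were, and DESeq2 called 3 lower. Among the smallest p-values were those of Kcnj9 at -0.68 on the log2 scale (adjusted p = 0.0721), Kcna2, an axonal delayed rectifier, at -0.65 (0.0752), Kcnb2 at -0.51 (0.0818) and Kcnk2 at -0.50 (0.0941, all in edgeR). Kcnj9 stood at 74.9, 80.2 and 74.1 CPM and Kcna2 at 179, 173 and 142 CPM, and both were below every shScr library. The median over the members was -0.13, and 5 members lay above and 13 below every shScr library, where 14.8% and 10.7% of all genes did.

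Since both depletions were set against the same shScr libraries, the depletions were also compared with each other. In this comparison the shH2afy2 libraries held more H2afy than shScr libraries did, as given above. Against shH2afy2, shH2afy had 10 of 79 members lower and 2 higher, where 6.74% and 9.83% of all genes were. Kcnab1 (-1.93, SE 0.26), Kcnab2 (-1.71, SE 0.22), Kcns3 (-1.54, SE 0.15) and Kcnh3 (-1.06, SE 0.11) were lower and Kcne1l (3.45, SE 0.15) and Kcnk6 (2.38, SE 0.24) were higher, as they were against shScr. The other lower genes included the erg channel Kcnh7 (-1.39), the small-conductance channel Kcnn1 (-1.07), the Kcnd partners Kcnip4 (-0.72) and Kcnip1 (-1.11), and the ancillary subunit Kcnmb2 (-1.26). Of the genes lower against shScr, Kcnc2 (-1.02, adjusted p = 0.0113 in edgeR), Kcnd2 (-0.79, adjusted p = 0.014 in edgeR), Kcnj9 and Kcnk2 were not called against shH2afy2. Without overlap between the groups, 6 members were higher and 33 lower, where 24.0% and 27.4% of all genes were. The count of called members fell to 1 without shH2afy replicate 1, to 2 without shH2afy2 replicate 1 and to 2 without shH2afy2 replicate 3, and rose to 21 without shH2afy replicate 3. Scaled to the pan-neuronal genes, 11 members were higher and 4 lower, with a median of 0.24 against 0.66 over all genes.

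The training experiment gave the shH2afy comparison in other libraries, made from ribosomal-RNA-depleted RNA with introns counted, so its levels are not on the scale of the depletion experiment. In untrained mice labelled shH2afy, 38 of 78 members fell and 8 rose against shScr at an adjusted p under 0.05, where 21.7% and 26.2% of all genes did. In trained mice 28 fell and 6 rose, where 21.7% and 24.2% of all genes did, and 27 of the genes lower in trained mice were also lower in untrained mice. Every library labelled shH2afy lay above every shScr library for 8 members and below for 43 in untrained mice, where 29.4% and 30.7% of all genes did, and for 8 and 30 in trained mice, where 29.8% and 29.2% did. The median over the members was -0.42 in untrained and -0.43 in trained mice. As stated above, the count of the targeted gene, introns included, was not lowered in these libraries.

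Of the 9 genes lower in the depletion experiment, 7 were lower in untrained and in trained mice labelled shH2afy as well, among them Kcnab1, Kcnab2, Kcnc2, Kcnd2, Kcnk2 and Kcns3. Kcnh3 was lower in trained mice (-0.74, SE 0.18) but not called in untrained mice (-0.48, SE 0.27), and Kcnj9 was called in neither (-0.35 in untrained and -0.44 in trained mice). Kcne1l and Kcnk6 were higher in all 3 comparisons, and 0 members were called in opposite directions. Among the 76 members tested in all 3, 52 were negative and 10 were positive throughout, with shScr libraries that differ between the depletion and training experiments.

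In untrained mice Kcnab2 stood at 268, 198 and 207 CPM in libraries labelled shH2afy and at 526, 618 and 581 CPM with shScr (-1.34, SE 0.13), and Kcnab1 at 269, 271 and 247 against 563, 747 and 527 CPM (-1.21, SE 0.14). Kcnc2 stood at 118, 108 and 116 against 218, 242 and 264 CPM (-1.06, SE 0.08, adjusted p = 0.000139 in edgeR). Kcnd2 stood at 1530, 1370 and 1500 against 2840, 3380 and 2600 CPM (-0.98, SE 0.12). The groups were apart for each of these genes. Kcne1l stood at 23.1, 16 and 14.8 against 0.755, 1.3 and 1.07 CPM (4.13, SE 0.25), and Kcnk6 at 15.9, 17.1 and 20.1 against 4.44, 5.75 and 4.8 CPM (1.85, SE 0.13). Trained mice held Kcne1l at 10.6, 12.8 and 12.5 CPM and Kcnk6 at 16.3, 17.7 and 17.5 CPM when labelled shH2afy.

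**Figure D3:**
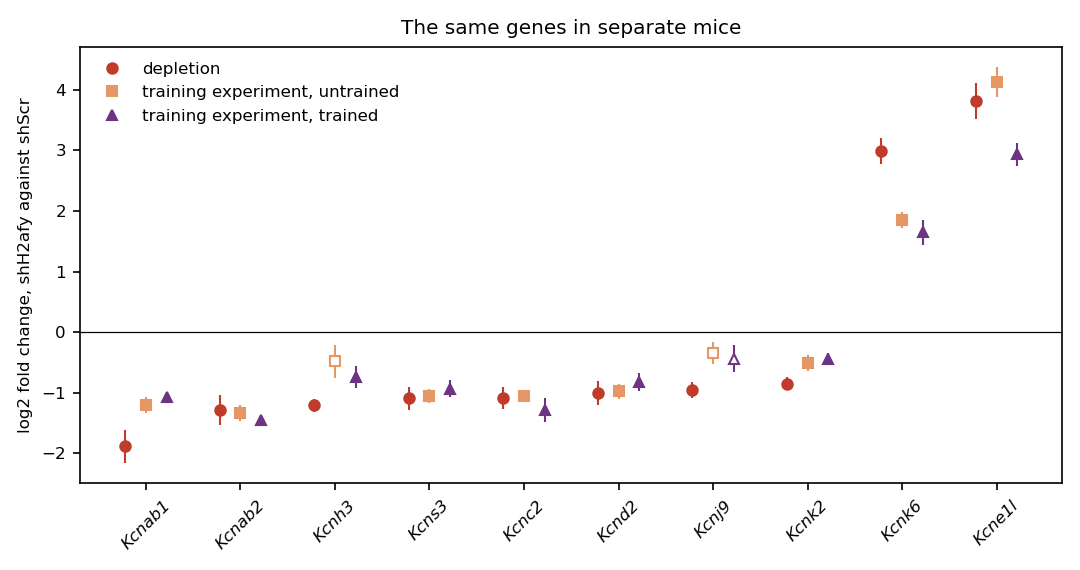
Log2 fold change with its standard error for 10 of the 11 genes called in the depletion experiment, shown there and in untrained and trained mice of the training experiment, with libraries labelled shH2afy set against shScr. Filled points passed the threshold, and Kcnj9 in both training groups and Kcnh3 in untrained mice did not.

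In untrained mice labelled shH2afy several subfamilies had most of their members called, relative to the median gene. Of all genes tested 21.7% fell and 26.2% rose. Nearer that share of falls were Kcnj with 3 of 12 lower, Kcnk with 3 of 10 and the silent subunits with 3 of 9. Among voltage-gated channels and their partners, 3 of 3 Kcnab and 3 of 4 Kcnc genes fell. The Kcnip partners of A-type channels were lower in 3 of 4 cases, with Kcnip2 at -0.93, Kcnip4 at -0.85 and Kcnip1 at -0.84 on the log2 scale. The M-current genes Kcnq3 (-0.72, SE 0.09) and Kcnq5 (-0.64, SE 0.18) fell, with Kcnq3 at 772, 668 and 779 CPM against 1180, 1250 and 1260 CPM. Of the activity-dependent genes 6 of 10 fell, among them Kcnma1 (-0.69), the small-conductance channel Kcnn2 (-1.17) and the ancillary subunits Kcnmb2 (-0.74) and Kcnmb4 (-0.49), the last of which turned positive under the pan-neuronal scaling given below.

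The largest fall in untrained mice was that of Kcnh7, at 351, 386 and 174 CPM against 817, 1180 and 798 CPM (-1.59, SE 0.31), followed by Kcnab3 (-1.46, SE 0.31) and the silent subunit Kcnv1 (-1.37, SE 0.17). The axonal pores Kcna1 (-0.43), Kcna2 (-0.43) and Kcna4 (-0.63) and the G-protein-gated rectifiers Kcnj3 (-0.77) and Kcnj6 (-0.89) were also lower, although Kcna1 and Kcna2 turned positive under that scaling. So was the leak channel Kcnk9, at -0.77. Next to Kcne1l and Kcnk6, the genes that rose were Kcna5 (1.57, SE 0.18), Kcnk13 (0.83, SE 0.13), Kcnq1 (0.83, SE 0.12), Kcnk5 (0.82, SE 0.20), Kcnj10 (0.36, SE 0.08) and Kcnd1 (0.34, SE 0.10). Kcna5 and Kcnk13 are known from microglia, Kcnj10 from astrocytes, and Kcnq1 and Kcnk5 from epithelia. Kcna5 stood at 2.79, 3.31 and 2.42 CPM against 0.958, 0.881 and 1.08 CPM, Kcnk13 at 56.4, 69.9 and 78.6 against 40.3, 41.2 and 35.7 CPM, and Kcnj10 at 159, 161 and 168 against 123, 141 and 120 CPM.

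Of these 6, Kcna5, Kcnk13, Kcnq1 and Kcnj10 were also called higher in trained mice (1.44, 0.93, 0.65 and 0.35). The genes lower in trained mice were led by Kcnv1 (-1.62, SE 0.18), Kcnab2 (-1.46, SE 0.08), Kcnab3 (-1.29, SE 0.32), Kcnc2 (-1.28, SE 0.20), Kcnh7 (-1.24, SE 0.23) and the silent subunit Kcns2 (-1.22, SE 0.14).

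Marker genes moved in the training experiment too. In untrained mice the pan-neuronal genes summed to 4660 to 5500 CPM in libraries labelled shH2afy and to 7830 to 8330 CPM with shScr, and CA1 pyramidal genes to 243 to 448 against 705 to 1080 CPM. Microglia genes summed to 980 to 1550 against 234 to 290 CPM, with 10 of 10 higher, where 26.2% of all genes were. Lymphocyte genes summed to 113 to 186 against 26.7 to 35.7 CPM, and thalamic neuron genes to 156 to 203 against 81.7 to 94.6 CPM. Scaled to the pan-neuronal genes, the members' median turned to 0.16 in untrained mice, with 22 higher and 8 lower and the median of all genes at 0.58, and to 0.20 in trained mice, with 27 higher and 8 lower and all genes at 0.61. Under that scaling Kcnk2, Kcnc1, Kcna1 and Kcnmb4 were among the called genes that changed sign in both, and Kcna2 changed sign in untrained mice.

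Genes that work with potassium channels were counted in lists of their own. Of 21 tested ancillary and anchoring partners, 6 fell and 0 rose with shH2afy in the depletion experiment, where 4.47% of all genes fell and 12.6% rose. Their median was -0.67, and the lower ones included the anchoring protein Akap5 (-1.47, SE 0.21), the Kcnd partner Dpp10 (-1.40, SE 0.26) and the scaffold Dlg4 (-0.83, SE 0.17). In untrained mice labelled shH2afy 13 of 20 fell and 0 rose, where 21.7% and 26.2% of all genes did, among them Cntnap2, which clusters axonal Kcna channels (-1.44, SE 0.21), and Akap5 (-1.29, SE 0.13), and in trained mice 12 fell and 1 rose, where 21.7% and 24.2% of all genes did. With shH2afy2 edgeR called 0 of 21 partners, with 1 higher and 5 lower at an unadjusted p under 0.05, where 1632 and 1606 of all 15609 genes were.

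Of 9 potassium pumps and cotransporters, 3 fell in the depletion experiment with shH2afy, among them the sodium pump subunit Atp1b1 (-1.04, SE 0.18) and the neuronal chloride extruder Slc12a5 (-1.24, SE 0.14). The cotransporter Slc12a7 rose (2.57, SE 0.26), and the other 5 were not called. Of all genes 4.47% fell and 12.6% rose. In untrained mice labelled shH2afy 2 of 9 rose (22.2%) and 4 fell (44.4%), where 26.2% and 21.7% of all genes did, so the share that rose was near that of all genes. HCN channels, which pass sodium and potassium on hyperpolarisation, had 0 of 5 called with shH2afy in the depletion experiment in edgeR. At an unadjusted p under 0.05 there were 1 higher and 2 lower, where 4015 and 3088 of all 16179 genes were. In untrained mice labelled shH2afy 2 of 5 HCN genes were lower and 1, Hcn3 (0.72, SE 0.20), was higher. The falls in these lists are relative to the median gene, as for the channel genes.

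For fear conditioning 1 h before collection, no potassium channel gene passed the threshold in edgeR. In the virus groups no other gene passed it either, so these counts cannot show whether the channel genes responded. With DESeq2 and its own thresholds the paper reported genes changed by training in both virus groups, among them Arc and Fos in scramble mice. In shScr mice 0 of 78 members were called, where 0.0% of all genes were, and 0 in DESeq2. At an unadjusted p under 0.05 there were 1 higher and 4 lower, where 722 and 660 of all 15424 genes were. The smallest p belonged to Kcna4, a rapidly inactivating axonal pore, at 45.7, 47.3 and 46.1 CPM in trained and 50, 54.8 and 53.7 CPM in untrained mice (-0.19, SE 0.05, adjusted p = 0.34 in edgeR). Kcnk2 was at -0.29, Kcne2 at -1.17 with all libraries under 1 CPM, Kcns3 at -0.24 and Kcnn2 at 0.40. In mice labelled shH2afy 0 of 78 were called in edgeR and 0.0% of all genes. At an unadjusted p under 0.05 there were 1 higher and 1 lower, where 294 and 319 of all 15866 genes were. The smallest p was that of Kcne1l (-0.59, adjusted p = 0.998 in edgeR). In shScr mice 0 members lay above and 7 below in all trained libraries, where 7.51% and 7.32% of all genes did, and in mice labelled shH2afy 2 lay above and 1 below, where 4.54% and 4.65% did. The medians over the members were -0.03 and 0.03.

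The training effect was also compared between the virus groups through an interaction term, which called 0 of 78 members in edgeR and 0.0% of all genes. At an unadjusted p under 0.05 there were Kcne2 (1.33) and Kcne1l (-1.19), both with an adjusted p of 1 in edgeR. Of all 15997 genes, 81 were higher and 252 lower at that unadjusted p. Kcne1l lay at 0.755, 1.3 and 1.07 CPM untrained and 1.29, 1.99 and 1.4 CPM trained in shScr, and at 23.1, 16 and 14.8 CPM untrained and 10.6, 12.8 and 12.5 CPM trained in libraries labelled shH2afy.

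In intact mice all 80 members were tested and 0 passed an adjusted p under 0.01 in edgeR, where 0.0959% of all genes were higher and 0.0% lower. At an unadjusted p under 0.05 there were 7 higher and 14 lower, where 1809 and 1311 of all 15641 genes were. DESeq2 called 3, and the count called in edgeR became 9 (3 higher, 6 lower) without untrained replicate 2. Kcna4 stood at 32.5 and 28.3 CPM in trained and 41.8, 48.4 and 42.7 CPM in untrained mice (-0.54, SE 0.09, adjusted p = 0.0394 in edgeR), and Kcnj2, a strong inward rectifier, at 9.86 and 7.75 against 16.7, 13.5 and 14.7 CPM (-0.77, adjusted p = 0.0448 in edgeR). Kcnk6 stood at 3.77 and 3.85 against 2.12, 2.53 and 2.48 CPM (0.68, adjusted p = 0.0576 in edgeR). Trained and untrained libraries did not overlap for these genes, and for 10 higher and 22 lower members in all, where 20.6% and 19.1% of all genes were apart. Kcne2, an ancillary subunit known from choroid plexus, stood at 1.46 and 1.22 against 2.41, 2.13 and 2.67 CPM (-0.84, adjusted p = 0.0712 in edgeR), and choroid plexus genes summed to 195 to 317 CPM in trained and 363 to 410 CPM in untrained mice, whose part in that value was not tested. The silent subunit Kcng1 was at 0.40 (adjusted p = 0.0784 in edgeR).

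**Figure D4:**
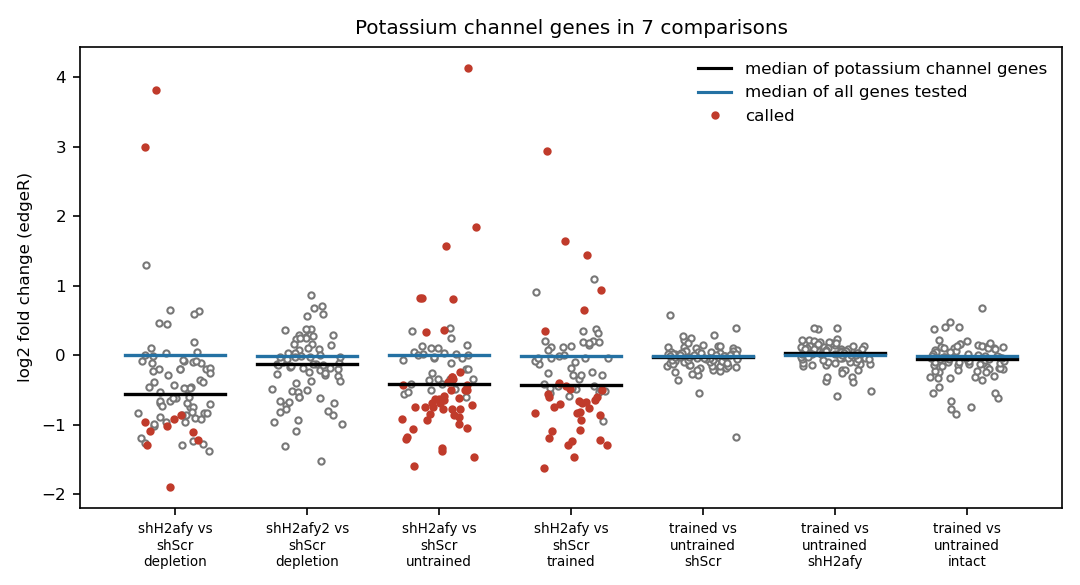
Log2 fold change of every tested potassium channel gene in 7 comparisons, with 1 point per gene, filled where called. The black line is the members' median, which lies at -0.56, -0.42 and -0.43 in the shH2afy comparisons and between -0.13 and 0.03 in the others, and the blue line is the median of all genes tested.

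Promoter sequences are shown for members called in all 3 shH2afy comparisons. Each is the 250 bases before RefSeq's transcription start on the coding strand, on GRCm38.p6, and capitals mark matches to the motifs searched. A window was at hand for 55 of the 78 coding members, and for 7 of these 9 genes. The windows are chr3:65108764-65109013 (plus strand) for Kcnab1, chr4:152477550-152477799 (minus) for Kcnab2, chr10:112270871-112271120 (plus) for Kcnc2, chr6:21215096-21215345 (plus) for Kcnd2, chrX:142306199-142306448 (minus) for Kcne1l, chr1:189402274-189402523 (minus) for Kcnk2 and chr12:11150843-11151092 (minus) for Kcns3. The GENCODE start, around which domains are counted further on, lies 370 bases from the RefSeq start for Kcnab1, 322 for Kcnab2, 214 for Kcns3, 157 for Kcnd2, 96 for Kcne1l and 0 for Kcnc2 and Kcnk2. The Kcnab2 window therefore lies inside the GENCODE gene, and those of Kcns3 and Kcne1l overlap theirs.
Kcnab1: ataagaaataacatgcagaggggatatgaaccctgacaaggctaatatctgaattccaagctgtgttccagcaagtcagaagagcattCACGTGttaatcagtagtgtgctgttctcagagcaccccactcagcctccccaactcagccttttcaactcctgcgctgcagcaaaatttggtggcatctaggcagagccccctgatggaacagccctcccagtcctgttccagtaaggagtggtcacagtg
Kcnab2: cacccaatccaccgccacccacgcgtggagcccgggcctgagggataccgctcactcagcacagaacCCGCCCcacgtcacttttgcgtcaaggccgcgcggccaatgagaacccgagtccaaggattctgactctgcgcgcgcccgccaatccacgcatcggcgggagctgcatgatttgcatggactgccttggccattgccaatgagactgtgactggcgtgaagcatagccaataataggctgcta
Kcnc2: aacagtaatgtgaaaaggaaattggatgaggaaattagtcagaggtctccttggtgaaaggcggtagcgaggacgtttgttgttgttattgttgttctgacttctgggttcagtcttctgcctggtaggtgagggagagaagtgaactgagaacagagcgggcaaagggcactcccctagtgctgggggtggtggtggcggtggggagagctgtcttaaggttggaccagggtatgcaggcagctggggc
Kcnd2: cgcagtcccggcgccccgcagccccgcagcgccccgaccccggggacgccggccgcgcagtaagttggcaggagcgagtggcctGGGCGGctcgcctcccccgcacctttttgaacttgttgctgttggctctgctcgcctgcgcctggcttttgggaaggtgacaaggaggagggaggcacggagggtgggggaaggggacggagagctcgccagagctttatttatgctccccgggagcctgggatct
Kcne1l: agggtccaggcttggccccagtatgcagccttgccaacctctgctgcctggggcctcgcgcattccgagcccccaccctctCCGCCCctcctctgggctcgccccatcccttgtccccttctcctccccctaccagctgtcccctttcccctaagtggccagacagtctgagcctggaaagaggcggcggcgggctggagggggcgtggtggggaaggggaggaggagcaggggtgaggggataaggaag
Kcnk2: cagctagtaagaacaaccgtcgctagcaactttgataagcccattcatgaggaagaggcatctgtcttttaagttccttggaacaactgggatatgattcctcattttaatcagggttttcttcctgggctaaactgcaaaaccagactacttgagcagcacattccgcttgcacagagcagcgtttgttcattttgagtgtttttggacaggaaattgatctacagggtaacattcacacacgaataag
Kcns3: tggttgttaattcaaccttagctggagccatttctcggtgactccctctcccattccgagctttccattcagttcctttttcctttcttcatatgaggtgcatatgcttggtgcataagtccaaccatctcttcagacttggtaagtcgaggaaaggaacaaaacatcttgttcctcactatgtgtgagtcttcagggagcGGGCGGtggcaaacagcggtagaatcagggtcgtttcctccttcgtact

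The capitals in Kcnab2, Kcnd2, Kcne1l and Kcns3 are GC boxes (GGGCGG or its reverse complement CCGCCC), and those in Kcnab1 are an E box (CACGTG). GC boxes were in 28 of 55 member windows, or 50.9%, and in 32.9% of 27025 RefSeq windows of this length. Those 27025 windows were not filtered for expression or for coding genes, as the members were. The shares in this paragraph therefore compare unlike sets and do not single out channel genes. E boxes were in 3 member windows (5.45% against 6.05%), the TATA motif TATAAA on either strand in 3.64% against 13.0%, the cAMP response element TGACGTCA in 0 against 1.62%, the repressor element part TTCAGCACC in 1, that of Kcnh6, against 0.285%, and the Ets motif GAGGAAGT in 0 against 2.44%. Both strands were searched, and none of these motifs was in the windows of Kcnc2 and Kcnk2. Member windows had a median GC content of 61.6% and 10 CpG dinucleotides, where all windows had 52.0% and 6. The windows shown differed in this, from 42.4% GC for Kcnk2 to 68.8% for Kcnd2 with 22 CpG dinucleotides.

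Domains enriched in mH2A1 or mH2A2 lay over the starts of many potassium channel genes. In untrained mice of the 30 min experiment, domains covered at least 50% of the 2 kb around the start in at least 2 of 3 libraries for 25 of 78 coding members with mH2A1 (32.1%) and for 42 with mH2A2 (53.8%). Of 13346 protein-coding genes with 1 CPM or more in shScr of the depletion experiment, 15.0% and 19.9% did so. Members needed that level in only 1 control group. Kcnq1 was under it in depletion shScr and is counted for both variants, as are Kcnk5 and Kcnh8 for mH2A2. Both variants were present by this measure at 21 members, and 14 members had a domain in none of the 6 libraries, which came from 3 mice sampled with both antibodies. A domain was in all 6 for 9 genes, among them Kcnc1, Kcnf1, Kcng4, Kcnh3, Kcnh6, Kcnip1, Kcnj11 and Kcnmb1. No test was made, because neighbouring and related genes are not replicates. Without replicate 2 or replicate 3 the counts were 16 and 16 for mH2A1 and 23 and 26 for mH2A2, since both remaining libraries then had to hold a domain, and with domains kept only at an FDR under 0.001 and a log2 enrichment of at least 1 they were 0 for both.

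By the same measure in these 30 min untrained libraries, domains covered the starts of 0 of 6 Kcna, 0 of 3 Kcnd and 0 of 2 Kcne genes with either antibody, while 3 of 4 Kcnc genes and 6 of 9 silent subunits had them with each antibody. Inward rectifiers had mH2A1 at 4 and mH2A2 at 8 of 12 starts, leak channels at 2 and 6 of 10, and calcium- and sodium-activated genes at 3 and 5 of 10. Other library sets differed. Kcna1, Kcna2, Kcna4, Kcna6 and Kcnd2 had mH2A2 in 3 of 3 trained 1 h libraries, Kcna5 had it in 3 of 3 untrained 1 h libraries, and Kcna5 and Kcne2 had mH2A1 in 5 of 5 untrained 6 h libraries. The median scramble level, in CPM of the library total, was 22.2 CPM for members with an mH2A1 domain and 37.0 CPM for those without, and 32.4 and 34.1 CPM for mH2A2.

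Members that moved with shH2afy were found with and without domains. Of the 9 lower genes in the depletion experiment, 3 had an mH2A1 and 5 an mH2A2 domain at the start in the same 30 min untrained libraries, and of the 65 coding members tested and not called, 20 and 34 did. Kcnh3 (chr15:99224861-99242817) had mH2A1 and mH2A2 in 3 of 3 libraries each, with 96.8% of the gene body under mH2A1 domains, and Kcns3 (chr12:11090202-11151056) had them in 2 and 3 libraries. At the Kcnh3 start mH2A1 was in 0 of 2 trained 30 min, 0 of 2 untrained 1 h and 1 of 5 untrained 6 h libraries, and mH2A2 in 3 of 3 trained and 2 of 3 untrained 1 h libraries. Kcnc2 (chr10:112271121-112467024) had mH2A1 in 3 libraries and mH2A2 in 1 around a start whose gene body was otherwise bare, at 0.756% covered by mH2A1, and had mH2A1 at the start in 0 libraries of every other set. Kcnab2 (chr4:152390742-152477871) and Kcnj9 (chr1:172320501-172329318) each had mH2A2 in 2 libraries and mH2A1 in 1.

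In the 6 untrained 30 min libraries the starts of Kcnd2 (chr6:21215503-21729805), Kcnab1 (chr3:65109384-65378223) and Kcnk2 (chr1:189207930-189402273) had no domain. In other library sets, however, Kcnd2 had mH2A2 in 3 of 3 trained and 2 of 3 untrained 1 h libraries. Kcnk2 had mH2A1 in 2 of 2 trained 30 min, 2 of 2 untrained 1 h, 4 of 5 trained 6 h and 2 of 5 untrained 6 h libraries. Kcnab1 had mH2A2 in 1 of 3 trained 1 h libraries and no other domain at its start. Of the raised genes, Kcnk6 (chr7:29221926-29232515) had mH2A1 in 2 and mH2A2 in 3 libraries with 76.5% of its body under mH2A1, and Kcne1l (chrX:142304752-142306294) had a domain in 0 of all 30 libraries. In the promoter windows printed above and the same 6 libraries, domains covered at least 50% of the bases of Kcnc2 in 3 mH2A1 libraries and 1 mH2A2 library, of Kcns3 in 2 and 3, and of Kcnab2 in 1 and 0, and in no library for Kcnab1, Kcnd2, Kcne1l and Kcnk2. Gene positions are those of GENCODE vM21 on mm10.

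The higher share over potassium channel genes than over expressed genes was seen in each of the 30 libraries with a domain list, 19 of mH2A1 and 11 of mH2A2. Set against all protein-coding genes, expressed or not, the members' share was higher in 26 libraries and lower in 4, all from the 1 h experiment. Per the methods of the study the mH2A1 antibody came from Abcam at 30 min and from Thermo Fisher at 1 h and 6 h, so time and antibody cannot be told apart for mH2A1. With mH2A1 the members with a domain at the start were 33.3, 44.9 and 35.9% of 78 in untrained mice of the 30 min experiment and 19.2 and 23.1% in trained mice, while expressed genes also went from 14.5, 21.9 and 15.7% to 8.34 and 9.48%. In the 6 h experiment, with 5 libraries in each group, the members' shares ran from 21.8 to 32.1% (median 29.5%) in untrained and from 23.1 to 35.9% (median 29.5%) in trained mice, and the groups overlapped. With mH2A2 at 1 h the shares were 11.5, 66.7 and 62.8% in untrained and 64.1, 43.6 and 57.7% in trained mice, where untrained replicate 1 stood apart, also among expressed genes at 3.79%. At 1 h the mH2A1 shares were 17.9 and 12.8% in untrained and 19.2 and 26.9% in trained mice. The labels of these untrained samples name mH2A1 in the title and mH2A2 as the antibody.

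**Figure D5:**
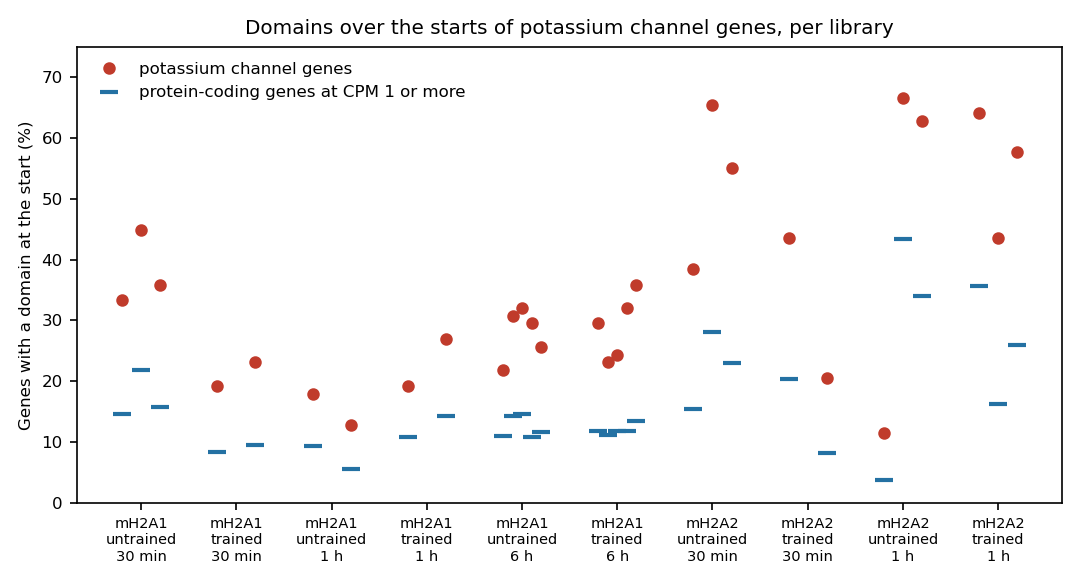
Percent of genes with a domain over at least 50% of the 2 kb around the start, per library, with points for the 78 coding potassium channel genes and bars for protein-coding genes at 1 CPM or more in shScr. In all 30 libraries the point lies above its bar.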

How the data were processed

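RNA-seq tables were deposited as raw counts per gene. Per the labels and the methods of the study, the authors aligned reads to mm10 with STAR and counted them with featureCounts, and the DESeq2 version named is 1.22.2. Training libraries were ribosomal-RNA-depleted and counted over whole transcripts. Domain lists were deposited by the authors with an FDR (an adjusted p-value) and a log2 enrichment over input for each domain. The labels name SICER and the methods epic2 as the caller.

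Each comparison used edgeR 4.0.16 (R 4.3.3): TMM scaling, filterByExpr (10 counts, 15 in total), the quasi-likelihood test on the compared groups and Benjamini-Hochberg adjustment over all genes, at 0.01 (depletion, intact) or 0.05 (training experiment). Levels are TMM-scaled CPM, except that membership, the 1 CPM minimum and the levels by domain class used library totals. Genes past the threshold were named, up to 30 with the smallest p, or the 5 with the smallest p where fewer than 5 passed, with Kcnab1, Kcnc2 and Kcnd2 and the highest member of each subfamily. DESeq2 1.42.0 was an alternative. The members and lists were chosen with earlier results of these data known. The scripts were tested on simulated data.

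Trained and untrained shScr libraries of the same number correlated in their deviations (0.168 to 0.229, others -0.213 to 0.021) and were treated as pairs in an alternative, which called 0 members. Libraries are labelled as separate mice where a mouse is named, and p-values otherwise measure only the spread between samples. No 2 libraries were identical. Domains were set against GENCODE vM21 starts. Some genes that the rules above would name are not reported here.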

Additional observations from a re-analysis of the deposited data

How the results depend on the processing

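Depth is lowest in the depletion experiment, where scarce members such as Kcne2 and Kcnq1 were measured poorly, and ChIP-seq depth is unknown from the domain lists. The counts of called members were recomputed under each alternative and are given without the share of all genes called under it. The cause of a change was not tested unless the alternative itself gives it.

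With shH2afy against shScr in the depletion experiment the 11 called members became 32 with DESeq2, 38 with no filter on low counts, 6 with the replicate block and 19 with all groups in 1 fit, and leaving out a library gave 4 to 21. With shH2afy2, the count of 0 became 3 with DESeq2 and 7 with no filter, and it stayed at 0 in each case without a library. For shH2afy against shH2afy2 the 12 became 30 with DESeq2, 36 with no filter and 25 with the replicate block, and 1 to 21 without a library. In the training experiment the 46 called in untrained mice labelled shH2afy became 30 with pan-neuronal scaling and 37 to 44 without a library, and the 34 in trained mice became 26 with the replicate block and 25 to 40 without a library. In intact mice the 0 became 3 with DESeq2 and 0 to 9 without a library. The numbers of the virus groups and of the intact groups mark no shared animal, and their same-numbered libraries did not deviate together throughout.

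The domain counts of 25 (mH2A1) and 42 (mH2A2) became 0 and 0 with stricter domains (FDR under 0.001 and log2 of at least 1), which also left 0.0% and 0.00749% of expressed genes, and 16 to 19 and 23 to 35 without a library. Any overlap with the window gave 33 and 45, and the 2 kb before the start 27 and 37.

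Under pan-neuronal scaling the log2 fold changes of these called genes changed sign. In untrained mice they were Kcnh8 (0.26), Kcnd3 (0.26), Kcnc1 (0.24), Kcnk2 (0.045), Kcnj11 (0.073), Kcnk10 (0.33), Kcna2 (0.14), Kcna1 (0.14), Kcnmb4 (0.088) and Kcnh5 (0.19). In trained mice they were Kcnc1 (0.071), Kcnk2 (0.17), Kcna1 (0.22), Kcna4 (0.12) and Kcnmb4 (0.14). Of 1140 values of the called genes reported here under the alternatives, 947 kept sign and call, 178 kept the sign only and these 15 changed sign.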

Other observations

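Domains also ran along the bodies of potassium channel genes. In untrained mice of the 30 min experiment, mH2A1 domains covered on average 28.1, 35.2 and 31.0% of a member's gene body, and 15.6, 24.7 and 17.1% of that of an expressed protein-coding gene in the same libraries. With mH2A2 the averages were 31.9, 43.9 and 41.4% for members and 19.5, 33.3 and 29.9% for expressed genes. In the 6 h experiment mH2A1 domains covered 29.7 to 41.9% of member bodies in untrained and 29.2 to 30.8% in trained mice. The 41.9% was that of untrained replicate 3 alone, and the next highest untrained library stood at 33.9%. Expressed genes were covered at 12.0 to 14.6% in untrained and 12.1 to 13.1% in trained mice.

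The noncoding member Kcnq1ot1, which is antisense to Kcnq1 and is known for imprinted silencing, had a log2 fold change of -0.08 (SE 0.33) with shH2afy and -0.02 (SE 0.24) with shH2afy2 in the depletion experiment. Its exons overlap 2.96% of those of Kcnq1, so reads there cannot be assigned to a strand.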
